A study of Mus musculus with 6 samples.

Results

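The collagen chain genes are the 44 genes of 30281 whose symbol in the deposited table has the form Col, a number, a and a number, each coding for an alpha chain of a collagen. They were chosen by symbol alone, and 201 annotated transcripts carry these symbols. By textbook class they are 11 fibrillar chains, 6 basement membrane chains (collagen IV), 9 FACIT chains (collagens that lie on the surface of fibrils) and 18 others. Of the 44, 16 reached 10 TPM (a level corrected for transcript length and scaled to the same total in each library) in at least 1 library, 12 reached 1 to 10 TPM, and 16 stayed under 1 TPM in every library.

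RNA was sequenced from cultured mouse cells in 6 libraries, with 1 library for each condition. A pair of libraries came from mouse embryonic fibroblasts (MEFs), the connective tissue cells grown from embryos, labelled Tsc2+/+ or Tsc2-/- and both also labelled p53-/- and untreated. The other 4 came from MKOC and TJ cells, which are kidney epithelial cells labelled Tsc2-null, each without treatment or after 100 nM rapamycin, an inhibitor of the growth-controlling kinase mTORC1. The labels give all 6 libraries, MEFs included, the same protocol of 18 hours in serum-free medium with diluent or rapamycin. TJ cells are labelled as derived from a secondary tumor in C57BL6 mice. Tsc2, which codes for a brake on mTORC1, was measured at 22.6 TPM in the library labelled Tsc2+/+ and 10.5 TPM in that labelled Tsc2-/-, and at 19.1 to 49.1 TPM in the kidney libraries labelled Tsc2-null. Trp53 RNA was likewise present in both MEF libraries labelled p53-/-, at 26.3 and 28.5 TPM, so the genotypes rest on the labels and, for Tsc2 in the MEFs, on the study's own check of its expression, which was not analysed here.

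Libraries held 22887020 to 37505004 estimated read pairs. Of 6 kidney tubule and 7 epithelial markers, 5 and 4 lay higher in all kidney libraries than in both MEF libraries. Among them, Cdh16 was at 395 to 720 TPM and Pax8 at 121 to 164 TPM in the kidney libraries, and both were under 1 TPM in the MEFs. The other 4 did not follow: Lhx1 had 0 counts in the kidney libraries, Cldn7 was at 0 and Epcam near 0 in every library, and Krt19 was at most 0.800 TPM in kidney libraries but at 55.6 TPM in Tsc2-/- MEFs. Of 9 fibroblast markers, 6 reached 1 TPM in the library labelled Tsc2+/+, 8 in that labelled Tsc2-/- and 2 in each kidney library. Pdgfrb was at 33.0 and 23.2 TPM in the MEFs and at most 0.180 TPM in the kidney libraries. The list did not separate the cell types by its sum, 3844 and 1687 TPM in the MEFs and 3616 to 7574 TPM in the kidney libraries, most of which was Vim (vimentin), at 3522 and 1118 TPM against 3609 to 7523 TPM. Dcn (decorin) overlapped as well, at 7.08 and 422 TPM in the MEFs and 6.73 to 50.3 TPM in the kidney libraries. The library labelled Tsc2-/- MEFs stood apart from its partner in markers of mesothelium, the lining of body cavities: 5 of 5 markers reached 1 TPM and their levels summed to 397 TPM, against 2.66 TPM in the library labelled Tsc2+/+. In these bulk samples, fewer cells of a type and less RNA per cell cannot be told apart.

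Collagens are proteins of the extracellular matrix in which 3 alpha chains wind into a triple helix. The helix is built of the repeat Gly-X-Y, because only glycine is small enough to face its axis, so the coding sequence of a collagen holds long runs in which a GGN codon, which codes for glycine, is followed by a pair of other codons. Fibrillar collagens assemble into the fibrils that give connective tissue its strength, with fibroblasts as their main source, whereas collagen IV forms the sheet-like network on which epithelia rest.

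The classes differed in how this repeat was laid out in the protein-coding transcript of each gene with the most reads (GENCODE M21, GRCm38). Transcripts of other annotated types were passed over, and Col13a1 had no reads to choose by. The longest unbroken run held 337 to 344 repeats in 9 fibrillar chains and 216 and 217 repeats in Col24a1 and Col27a1. In the 6 collagen IV chains it held 39 to 66 repeats, and each of these chains was broken into 22 to 27 runs of at least 5 repeats. The first 54 coding bases of the longest run are shown for the chains that carry the main contrasts, with the GGN codon that opens each repeat in capitals.
Col1a1 (transcript on chr11:94936224-94953042, + strand, run from codon 168): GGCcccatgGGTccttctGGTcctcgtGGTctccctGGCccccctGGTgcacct
Col3a1 (gene on chr1:45311538-45349706, + strand, run from codon 164): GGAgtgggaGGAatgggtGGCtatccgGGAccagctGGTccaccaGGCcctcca
Col4a1 (transcript on chr8:11198423-11312826, - strand, run from codon 43): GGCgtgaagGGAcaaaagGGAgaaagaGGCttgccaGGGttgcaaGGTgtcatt
Col4a6 (transcript on chrX:141165403-141474076, - strand, run from codon 822): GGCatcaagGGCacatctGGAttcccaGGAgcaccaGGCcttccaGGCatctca
Col6a3 (transcript on chr1:90766860-90843952, - strand, run from codon 1558): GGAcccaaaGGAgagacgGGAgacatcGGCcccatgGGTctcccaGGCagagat
Col18a1 (transcript on chr10:77052178-77166548, - strand, run from codon 494): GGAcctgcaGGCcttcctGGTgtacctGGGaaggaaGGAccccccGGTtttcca

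Collagen RNA was more abundant in the MEFs and of another kind than in the kidney cells. The 44 genes summed to 2532 TPM in the Tsc2+/+ and 2768 TPM in the Tsc2-/- MEFs, and to 200.1, 218, 203 and 270 TPM in untreated MKOC, rapamycin-treated MKOC, untreated TJ and rapamycin-treated TJ cells (0.253% and 0.277% against 0.020% to 0.027% of all TPM). Fibrillar chains made up 81.8% and 83.7% of the collagen TPM in the MEFs but 12.5% to 17.1% in the kidney libraries. There the largest share, 50.2% to 64.4%, came from the other chains, and most of it from 1 gene, Col18a1. Collagen IV took 3.99% and 10.04% of collagen TPM in the MEFs and 17.6% to 26.7% in the kidney cells.

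**Figure D1:**
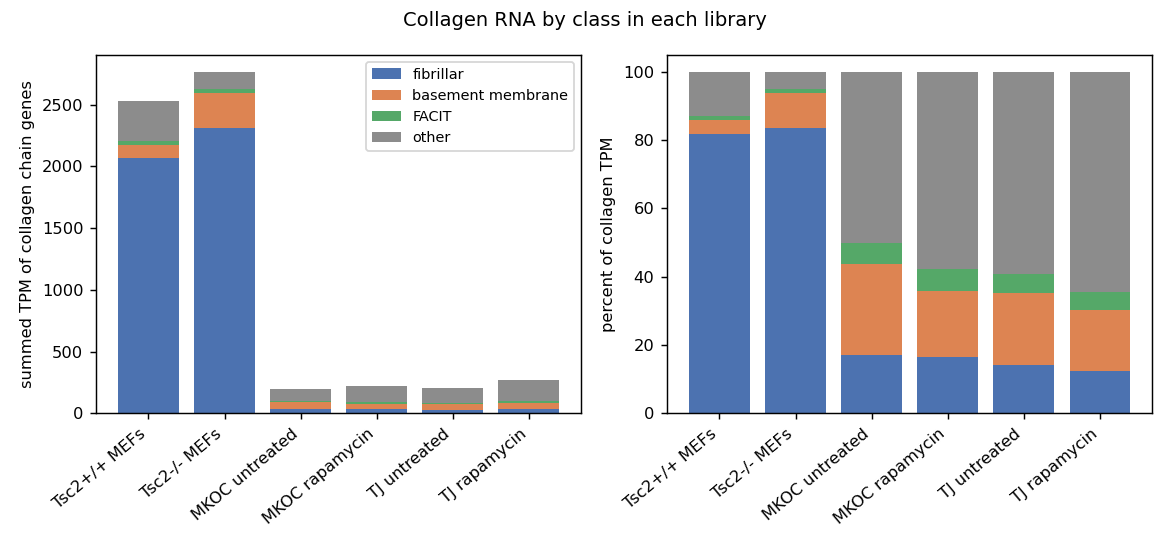
Stacked bars show the summed TPM of the collagen chain genes by class in each of the 6 libraries (left) and the percent of the collagen TPM that each class took (right). Fibrillar chains fill 81.8% and 83.7% of the MEF bars and 12.5% to 17.1% of the kidney bars.

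The comparison of MEFs with kidney cells asked which chains separated the 2 cell types whatever the genotype or treatment. Among the 28 collagen genes that reached 1 TPM in a library, both MEF values lay above all 4 kidney values for 17 genes, and all 4 kidney values lay above both MEF values for 3. Over all 13913 genes at that level, 21.4% lay higher in the MEFs and 26.8% higher in the kidney libraries, 48.2% together. Some of the 17 separated narrowly, Col4a1 and Col4a2 by 1.31 and 1.13 times. Col4a6 is among the 17 on values near 0. It was at 0.0873 TPM (15 counts) in Tsc2+/+ MEFs against at most 0.0580 TPM in the kidney libraries. No test was made, since each condition is 1 library and the cell type cannot be told apart from the line, its origin, its genotype and its handling.

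The chains of the major fibrils were on the MEF side. Col1a2 codes for the alpha 2 chain of collagen I and was at 996 and 788 TPM in Tsc2+/+ and Tsc2-/- MEFs. In untreated MKOC, treated MKOC, untreated TJ and treated TJ cells it was at 0.208, 0.240, 0.188 and 0.254 TPM. The lower MEF value was 3098 times the highest kidney value, the widest gap of any member. Col1a1, the alpha 1 chain, was at 274 and 474 TPM in the MEFs and at 0.0950, 0.0892, 0.309 and 0.931 TPM in the kidney libraries. Those kidney levels rest on 8 to 21 estimated counts, of which 8 counts have a 95% Poisson interval of 3.45 to 15.8.

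Col3a1, the chain of collagen III, was at 503 and 751 TPM in the MEFs and at 0.473, 0.973, 0.139 and 1.07 TPM in the kidney libraries. Its gene sum includes short annotated fragments. The full-length transcript alone was at 297 and 480 TPM in the MEFs and at 0.0217, 0.0460, 0.0444 and 0.131 TPM in the kidney libraries, a wider gap than that of the sum. Col5a2, a minor chain of fibrils that helps to set their diameter, was at 274 and 250 TPM in the MEFs and 0.262, 0.368, 0.232 and 0.457 TPM in the kidney libraries. By gene sums, the lower MEF value was 470 times the highest kidney value for Col3a1 and 548 times for Col5a2.

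Col5a1, the partner chain of Col5a2 in collagen V, did not follow that pattern. It was at 22.1 and 42.3 TPM in the MEFs and at 32.5, 33.5, 27.9 and 30.1 TPM in the kidney libraries, which lay between the MEF values. Together with Col4a5 it was 1 of 2 members of at least 10 TPM in all 6 libraries. The ratio of Col5a1 to Col5a2 was therefore 0.0807 and 0.169 in the MEFs and 66.0 to 124 in the kidney cells. Of the remaining fibrillar chains, Col5a3 was higher in the MEFs (1.501 and 2.101 TPM against 0 to 0.119 TPM), Col11a2 as well, and Col2a1, the cartilage collagen, was at most 0.0823 TPM anywhere.

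Genes of collagen synthesis and processing lay on either side. Of the 29 on a list of textbook enzymes and chaperones, 28 reached 1 TPM in a library, and of these 16 lay higher in the MEFs and 4 higher in the kidney libraries, beside the 21.4% and 26.8% of all genes. Lox, which cross-links collagen, was at 146 and 174 TPM in the MEFs and at most 0.113 TPM in the kidney cells. Plod2, which hydroxylates lysines of collagen ends, was at 23.5 and 56.4 TPM against at most 0.0185 TPM. Serpinh1, the collagen chaperone of the endoplasmic reticulum, was present in all 6, at 300.2 and 822 TPM in the MEFs and 174, 85.8, 150 and 121 TPM in the kidney libraries. The 4 on the kidney side were Loxl4, P3h2, Colgalt1 and Pcolce2. Loxl4, another cross-linking enzyme, was at 17.9 and 16.4 TPM in the MEFs and 63.5 to 134 TPM in the kidney libraries, and P3h2, a prolyl 3-hydroxylase, at 2.55 and 8.61 TPM against 29.1 to 55.4 TPM.

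**Figure D2:**
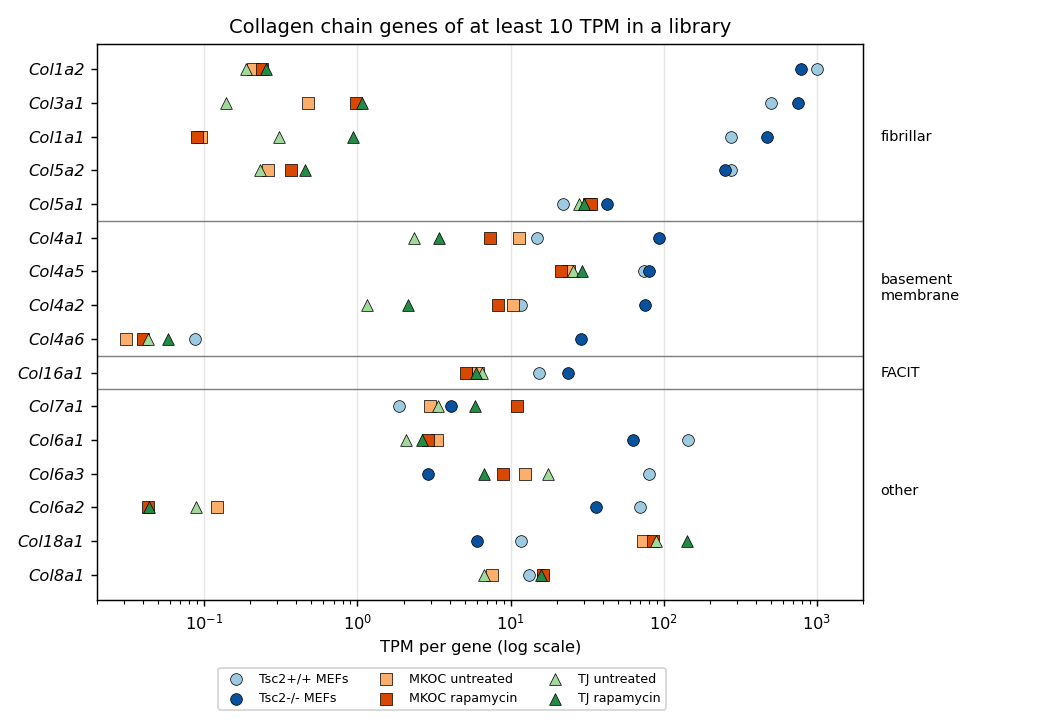
Each point is the TPM of 1 gene in 1 library (log scale) for the 16 collagen chain genes that reached 10 TPM, grouped by class. Col1a2, Col3a1, Col1a1, Col5a2 and Col6a2 lie 294 to 3098 times higher in the lower MEF library (circles) than in the highest kidney library (squares and triangles), Col5a1 overlaps, and Col18a1 lies higher in the kidney libraries.

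Col18a1 was the most abundant of the 3 genes on the kidney side. It codes for the chain of collagen XVIII, a basement membrane proteoglycan whose C-terminal fragment is endostatin. It was at 11.7 and 6.07 TPM in Tsc2+/+ and Tsc2-/- MEFs and at 73.4, 85.1, 89.5 and 141 TPM in untreated MKOC, treated MKOC, untreated TJ and treated TJ cells, so that the lowest kidney value was 6.27 times the higher MEF value. The others were Col4a3 and Col4a4, described with collagen IV.

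Reads of Col18a1 were assigned to a different mix of starts in the kidney cells and in Tsc2+/+ MEFs. The transcript that begins at the upstream start (ENSMUST00000081654, 42 exons) held 99.3%, 98.7%, 97.6% and 98.2% of the gene's estimated counts in the kidney libraries. It held 86.7% in Tsc2-/- MEFs. In Tsc2+/+ MEFs it held 48.0%, and 21.1% and 12.6% of the counts lay on transcripts from the downstream starts. Kallisto divides reads among overlapping transcripts, and the MEF shares rest on 360 and 927 counts for the whole gene. The RefSeq promoters (GRCm38.p6, 250 bases before to 50 after the start) of the upstream and downstream start follow, with the searched motifs in capitals on either strand. These were TATAAA as the TATA box, the letters CCAAT where they stand alone as the CCAAT box, the letters GGGCGG for the GC box, and lastly TGAGTCA for the AP-1 site.
Col18a1 upstream start (chr10:77166481-77166780, - strand): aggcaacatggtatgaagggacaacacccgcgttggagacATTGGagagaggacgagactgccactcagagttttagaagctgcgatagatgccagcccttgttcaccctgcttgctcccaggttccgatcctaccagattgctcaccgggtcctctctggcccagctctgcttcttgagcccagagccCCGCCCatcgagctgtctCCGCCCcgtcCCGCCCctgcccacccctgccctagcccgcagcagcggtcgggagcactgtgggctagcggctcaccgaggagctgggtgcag
Col18a1 downstream start (chr10:77113656-77113955, - strand): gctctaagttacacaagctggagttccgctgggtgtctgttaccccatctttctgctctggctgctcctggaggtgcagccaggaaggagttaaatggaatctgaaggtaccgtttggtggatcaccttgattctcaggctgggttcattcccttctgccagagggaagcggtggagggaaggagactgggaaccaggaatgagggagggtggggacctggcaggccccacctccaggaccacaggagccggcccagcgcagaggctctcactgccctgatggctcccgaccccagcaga
The upstream window held a CCAAT box and 3 GC boxes, and the downstream window none of the 4 motifs.

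Collagen VI, the beaded filament that links cells to the matrix, was split by chain. It is assembled from the products of Col6a1, Col6a2 and a larger chain such as that of Col6a3. Col6a1 was at 143 and 63.3 TPM in the MEFs and at 3.30, 2.88, 2.08 and 2.63 TPM in the kidney libraries. Col6a2 was at 69.9 and 36.1 TPM in the MEFs and at 0.121, 0.0430, 0.0882 and 0.0438 TPM in the kidney libraries, where it had 3 to 10 counts. Col6a3 was at 80.0 and 2.89 TPM in the MEFs and at 12.5, 8.88, 17.4 and 6.71 TPM in the kidney libraries, between the MEF values. Thus Col6a1 and Col6a2 separated the cell types and Col6a3 separated the MEF libraries instead.

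FACIT chains were expressed at low levels throughout. Col16a1, which occurs at fibril surfaces and in basement membrane zones, was at 15.3 and 23.8 TPM in the MEFs and at 6.15, 5.14, 6.54 and 5.94 TPM in the kidney libraries, without overlap. Col12a1, which binds to collagen I fibrils, was at 7.80 and 4.75 TPM in the MEFs and 4.71, 7.94, 4.31 and 7.47 TPM in the kidney libraries, and these overlapped. Col20a1 (6.82 and 3.26 TPM against at most 0.371 TPM) and Col9a3 (3.44 and 1.33 TPM against at most 0.788 TPM) were higher in the MEFs. Col9a1, Col9a2, Col19a1 and Col22a1 stayed under 1 TPM.

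Of the short-chain collagens, Col8a1 overlapped between the cell types, and Col8a2 was at 2.95 and 3.97 TPM in the MEFs and at most 0.0133 TPM in the kidney libraries. Col26a1 was at 2.43 and 2.997 TPM in the MEFs and at 0.578 to 1.80 TPM in the kidney libraries. In all, 8 of the 28 genes of at least 1 TPM overlapped: Col5a1, Col6a3, Col7a1, Col8a1 and Col12a1, and Col11a1, Col14a1 and Col15a1, which were near 0 in Tsc2+/+ MEFs. Among the rest, 16 genes stayed under 1 TPM in every library, the highest of them Col24a1 at 0.928 TPM in Tsc2-/- MEFs. They included the transmembrane collagens Col13a1, Col17a1, Col23a1 and Col25a1, the collagen VI chains Col6a4, Col6a5 and Col6a6, Col27a1, Col28a1, and Col10a1, a product of hypertrophic cartilage. Col13a1 had 0 estimated counts in all 6 libraries. A count of 0 allows up to 3 counts in a library, a one-sided 95% limit where the Poisson intervals are two-sided, and both cover counting error only.

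Collagen IV is made from 6 genes that lie head to head in 3 pairs, and the pairs behaved differently. Col4a1 and Col4a2, which supply the collagen IV of most basement membranes, had similar levels to each other in each library. Col4a3 and Col4a4, which with Col4a5 form the network of the kidney glomerulus, were higher in the kidney libraries, and Col4a5 was expressed in every library while its neighbour Col4a6 was not. The starts of Col4a1 and Col4a2 lie 21 bases apart on chr8, those of Col4a3 and Col4a4 72 bases apart on chr1, and those of Col4a5 and Col4a6 1309 bases apart on chrX.

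**Figure D3:**
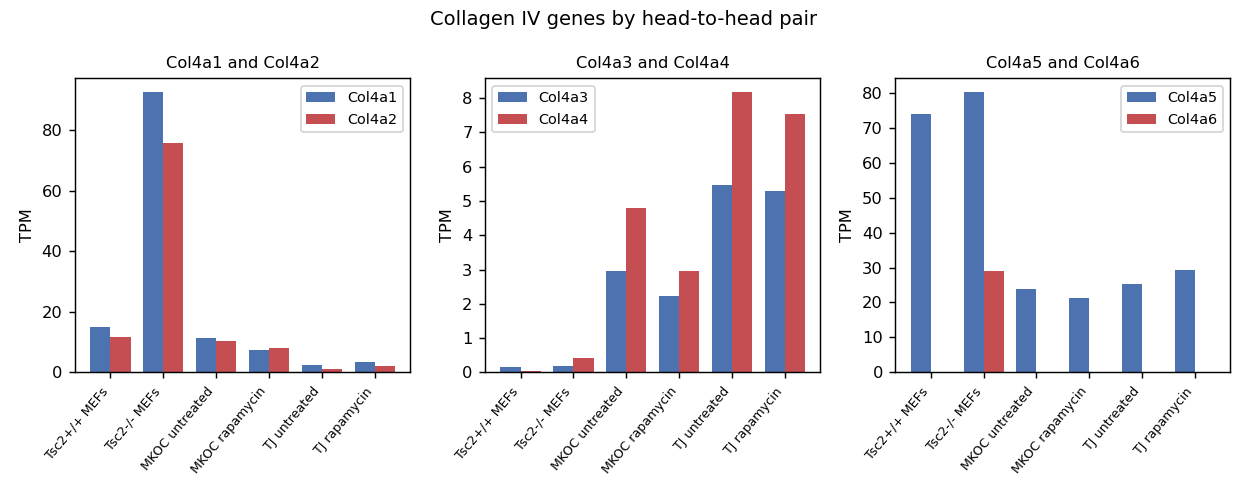
Bars give TPM in each of the 6 libraries for the 3 head-to-head pairs of collagen IV genes, each panel with its own scale from 0. Col4a1 and Col4a2 have similar heights within each library, whereas Col4a6 is visible only in Tsc2-/- MEFs.

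Col4a1 was at 14.9 and 92.5 TPM in Tsc2+/+ and Tsc2-/- MEFs and at 11.4, 7.37, 2.32 and 3.42 TPM in untreated MKOC, treated MKOC, untreated TJ and treated TJ cells. Col4a2 was at 11.7 and 75.7 TPM, and at 10.3, 8.22, 1.16 and 2.13 TPM. The ratio of Col4a1 to Col4a2 stayed between 0.897 and 2.01 in the 6 libraries. The promoter windows of this pair share 78 bases, printed on opposite strands.
Col4a1 (chr8:11312777-11313076, - strand): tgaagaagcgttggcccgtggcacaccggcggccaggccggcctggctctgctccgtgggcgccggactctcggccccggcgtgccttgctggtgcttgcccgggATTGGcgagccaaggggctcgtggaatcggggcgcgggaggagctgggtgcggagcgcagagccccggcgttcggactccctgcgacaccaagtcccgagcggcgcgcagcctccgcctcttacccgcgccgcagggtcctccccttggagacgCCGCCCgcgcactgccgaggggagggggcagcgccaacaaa
Col4a2 (chr8:11312555-11312854, + strand): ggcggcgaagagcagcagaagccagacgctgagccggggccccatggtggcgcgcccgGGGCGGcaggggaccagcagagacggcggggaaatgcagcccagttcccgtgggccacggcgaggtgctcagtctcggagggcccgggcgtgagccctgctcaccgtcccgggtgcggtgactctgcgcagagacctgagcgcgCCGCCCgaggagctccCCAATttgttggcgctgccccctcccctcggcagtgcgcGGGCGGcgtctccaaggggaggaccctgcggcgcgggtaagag
Each window held 1 CCAAT box and neither held a TATA box. The Col4a1 window had 1 GC box and the Col4a2 window 3. The GC box of the Col4a1 window and the last one of the Col4a2 window are the same bases, within the shared stretch.

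Col4a5 was at 74.0 and 80.1 TPM in the MEFs and at 24.0, 21.3, 25.4 and 29.2 TPM in the kidney libraries. Col4a6 was at 0.0873 and 28.9 TPM in the MEFs and at 0.0307, 0.0396, 0.0428 and 0.0580 TPM in the kidney libraries. Only the library labelled Tsc2-/- MEFs expressed Col4a6 above 1 TPM, and there Col4a5 was 2.77 times as high, against 503 to 848 times in the other 5 libraries. Their RefSeq promoter windows do not overlap.
Col4a5 (chrX:141475169-141475468, + strand): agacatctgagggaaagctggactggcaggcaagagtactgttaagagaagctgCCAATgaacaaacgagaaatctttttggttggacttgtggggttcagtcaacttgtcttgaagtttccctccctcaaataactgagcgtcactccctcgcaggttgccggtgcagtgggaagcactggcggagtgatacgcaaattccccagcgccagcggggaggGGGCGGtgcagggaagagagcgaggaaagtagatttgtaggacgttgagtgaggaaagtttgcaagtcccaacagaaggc
Col4a6 (chrX:141474027-141474326, - strand): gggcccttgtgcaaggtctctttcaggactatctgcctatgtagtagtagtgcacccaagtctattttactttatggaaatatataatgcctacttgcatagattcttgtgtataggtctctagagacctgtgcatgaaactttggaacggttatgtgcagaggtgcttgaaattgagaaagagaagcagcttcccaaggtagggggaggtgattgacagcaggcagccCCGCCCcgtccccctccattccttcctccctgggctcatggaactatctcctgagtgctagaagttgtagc
The Col4a5 window held a CCAAT box and a GC box, and the Col4a6 window a GC box.

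Col4a3 was at 0.147 and 0.188 TPM in the MEFs and at 2.97, 2.24, 5.47 and 5.28 TPM in the kidney libraries, and Col4a4 at 0.0288 and 0.418 TPM and at 4.78, 2.94, 8.16 and 7.54 TPM. The lowest kidney value was 11.9 times the higher MEF value for Col4a3 and 7.05 times for Col4a4. Over the 38 RefSeq promoters found for 35 of the members, a GC box was in 60.5% against 35.7% of all 32851 promoters, a CCAAT box in 34.2% against 37.4%, a TATA box in 13.2% against 13.6%, and an AP-1 site in 2.63% against 5.20%. The median GC content was 59.8% against 52.7%.

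The comparison of Tsc2-/- with Tsc2+/+ MEFs asked which chains differed with the Tsc2 label in fibroblasts, with no replicate and therefore no test. Col4a1, Col4a2 and Col4a6 were higher past 2-fold and Col6a1 and Col6a3 lower past 2-fold in Tsc2-/- MEFs, while the abundant fibrillar chains differed by less than 2-fold. Col6a2 was lower by less than 2-fold on the plain scale and by 2.49-fold relative to the median ratio of all genes. On the scale of TPM with 1 added, Col4a6 was 27.5-fold higher in Tsc2-/- MEFs and Col6a3 was 20.8-fold lower, and they were the 2 members past 8-fold. Over all 30281 genes, 1.59% passed 8-fold, 1.37% higher and 0.221% lower, and among the 12771 genes of at least 1 TPM in a MEF library 3.77% did (3.24% higher and 0.525% lower), where 2 of 26 members did.

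The library labelled Tsc2-/- read higher over most genes: the median ratio over 7377 genes of at least 10 TPM in both MEF libraries was 1.31 (0.39 on the log2 scale), and 12 such members had a median of 1.37. Transcripts under 300 bases took 20.9% of TPM in Tsc2+/+ MEFs and 7.12% in Tsc2-/- MEFs. Values of the collagen chains relative to the median ratio are therefore given beside the plain ones, and those of partner genes are plain where no other scale is named. The median log2 fold change was 0.32 over the 26 members of at least 1 TPM and 0.45 over all 12771 such genes.

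Col4a6 had 15 counts in Tsc2+/+ MEFs (95% Poisson interval 8.40 to 24.7) and 2891 in Tsc2-/- MEFs, and was 21.2-fold higher relative to the median. Col4a1 and Col4a2 were 5.86-fold and 6.04-fold higher, or 4.49-fold and 4.63-fold relative to the median. Col4a5 was 1.08-fold higher, and 1.21-fold lower once scaled to the median, so its direction depended on the scaling. Nid2, a basement membrane linker that binds collagen IV, was 40.03-fold higher, whereas its relative Nid1 was at 211 and 221 TPM, 1.05-fold higher, and 1.25-fold lower relative to the median, so that its direction depended on the scaling. The 5 mesothelial markers were higher in the same library, Upk3b at 154 TPM and Wt1 at 81.6 TPM against 0 and 0.0668 TPM, and Krt19 was at 55.6 TPM against 0.0506 TPM and Krt18 at 20.6 TPM against 0. The 5 smooth muscle markers summed to 520 TPM there against 240.1 TPM, with Tagln 6.99-fold, Cnn1 8.62-fold and Des 7.55-fold higher. Most of each sum was Acta2, which was 1.75-fold higher, or 1.34-fold relative to the median. Myh11 went the other way and was 1.27-fold lower, with 80 counts in Tsc2+/+ and 10 in Tsc2-/- MEFs. Their part in the collagen IV values was not tested.

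Collagen VI was lower in Tsc2-/- MEFs in each of its 3 chains above 1 TPM. Col6a3 had 11662 counts in Tsc2+/+ and 264 in Tsc2-/- MEFs and was 25.2-fold lower relative to the median, whereas Col6a1 was 2.24-fold lower and Col6a2 1.91-fold lower (2.92-fold and 2.49-fold relative to the median). The ratio of Col6a1 to Col6a3 was 1.79 in Tsc2+/+ MEFs and 21.9 in Tsc2-/- MEFs. Bgn, the small proteoglycan biglycan, which binds collagen VI, was 5.10-fold lower, and Postn, periostin, 8.39-fold lower. They come from a list of 14 collagen-binding matrix genes, of which 3 were lower past 2-fold and 7 higher, Dcn by 52.4-fold.

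The fibrillar chains I, III and V did not move in 1 direction. Col1a1 was 1.73-fold higher, Col3a1 1.49-fold higher and Col5a1 1.88-fold higher in Tsc2-/- MEFs, or 1.32-fold, 1.14-fold and 1.44-fold relative to the median. Col1a2 was 1.26-fold lower and Col5a2 1.09-fold lower, or 1.66-fold and 1.43-fold relative to the median. The ratio of Col1a2 to Col1a1 was 3.64 in Tsc2+/+ MEFs and 1.66 in Tsc2-/- MEFs, against the 2 alpha 1 chains and 1 alpha 2 chain of the collagen I protein.

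Some minor chains were detected in 1 of the MEF libraries alone or nearly so. Col11a1, which nucleates thin fibrils, had 0 counts in Tsc2+/+ and 323 in Tsc2-/- MEFs. Relative to total counts, and with a floor of 3 counts in the Tsc2+/+ library, this is at least 168-fold higher. Col15a1, the relative of Col18a1, had 0 and 64 counts and was at least 33.3-fold higher on that scale, and Col14a1, a FACIT chain, had 4 and 205 counts. In the other direction, Col9a1, a FACIT chain of cartilage, had 33 and 0 counts and was at least 7.04-fold lower in Tsc2-/- MEFs. Past 2-fold on the TPM plus 1 scale, 7 members were higher (these 3 genes, Col11a2 and the collagen IV genes Col4a1, Col4a2 and Col4a6) and 2 lower (Col6a3 and Col6a1). Relative to the median ratio 6 were higher, without Col11a2, and 6 lower (Col6a3, Col6a1, Col6a2, Col18a1, Col20a1 and Col9a3), so the split depended on the scaling, while 15.8% of all genes of at least 1 TPM were then higher and 8.21% lower. Past 2-fold on the plain scale, 12.8% of all genes differed (10.6% higher and 2.19% lower), and 30.4% of those of at least 1 TPM did (25.2% higher and 5.18% lower).

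**Figure D4:**
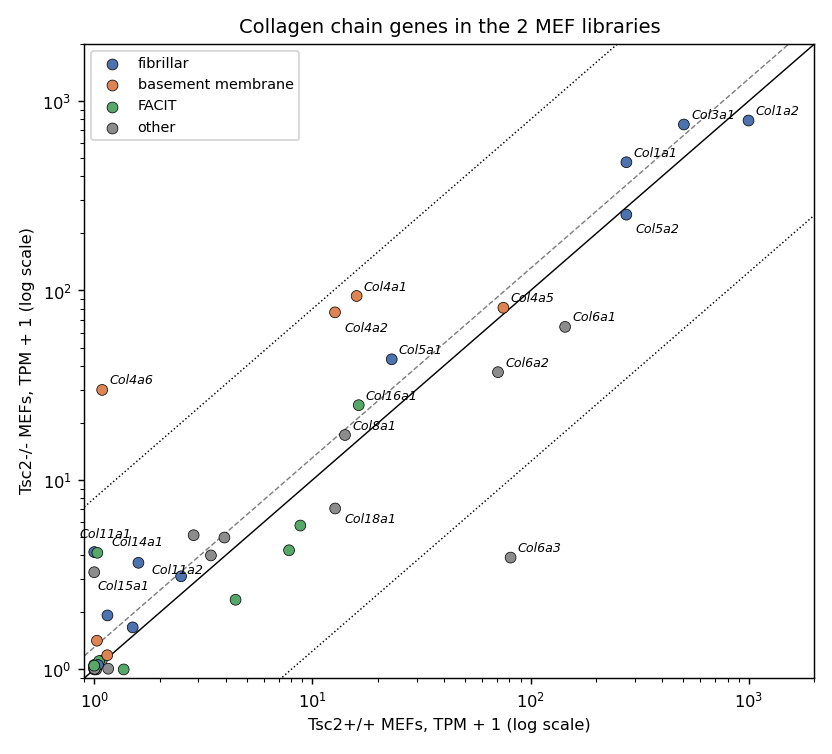
Each point is 1 collagen chain gene, by TPM with 1 added in Tsc2+/+ MEFs (horizontal) and Tsc2-/- MEFs (vertical), both on log scales and coloured by class. The solid line marks equal values, the dashed line the median ratio of 1.31 and the dotted lines 8-fold, beyond which only Col4a6 (above) and Col6a3 (below) lie.

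Of the 29 synthesis and processing genes, 9 were higher past 2-fold in Tsc2-/- MEFs and 0 lower, where 28 reached 1 TPM and 25.2% of all genes at that level were higher and 5.18% lower. Relative to the median ratio 7 were higher and 1, Pcolce2, lower. Loxl2, a cross-linking enzyme that acts on collagen IV, was 67.2-fold higher (0.138 and 75.6 TPM), and Adamts2, which removes the N-terminal propeptide of fibrillar procollagens, was 10.8-fold higher (0.198 and 12.0 TPM). Among 14 collagen-binding matrix genes, 12 reached 1 TPM, and 7 were higher past 2-fold and 3 lower. Relative to the median ratio 5 were higher and 4 lower. Dcn (decorin) was 52.4-fold higher and Thbs1 (thrombospondin 1) 15.6-fold higher. The 3 lower on the plain scale were Postn, Bgn and Fn1 (fibronectin). Fn1 was at 1306 and 612 TPM in Tsc2+/+ and Tsc2-/- MEFs, 2.13-fold lower. Of 10 collagen receptors, 8 reached 1 TPM, and 4 were higher past 2-fold and 0 lower. Itga11, the integrin alpha chain for fibrillar collagen, was 5.73-fold higher, Ddr1 3.41-fold, Mrc2 3.32-fold and Itga1 2.46-fold. Ddr2 was 1.37-fold lower and did not pass 2-fold.

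The comparison of rapamycin-treated with untreated kidney cells asked which chains changed when mTORC1 was inhibited in the same way in MKOC and TJ cells. Of the 22 members with enough counts to test, 6 rose and 1 fell when edgeR's quasi-likelihood model held a term for the line (Benjamini-Hochberg adjustment over 12952 genes). Rapamycin changed 34.9% of all genes tested (17.5% rose, 17.4% fell), so the 31.8% of members called is near the background. The median log2 change was 0.41 over the 22 members and 0.02 over all genes. Nothing states that the libraries are separate cultures, so these p-values measure the spread between these libraries, which may be technical, with 1 residual degree of freedom and the spread shared across genes. Transcripts under 300 bases took 4.09% and 5.69% of TPM in untreated and 7.31% and 7.998% in treated MKOC and TJ cells, so changes are given in counts.

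The firmest rises were in 3 chains outside the major fibrils. Col8a1, a short-chain collagen of the subendothelium and of Descemet's membrane, was at 7.52 TPM in untreated and 16.2 TPM in treated MKOC cells, and at 6.73 and 15.8 TPM in TJ cells. Both treated libraries lay above both untreated ones, with a log2 change of counts of 1.16 (SE 0.11, edgeR adjusted p = 7.7e-05) and of 1.09 and 1.22 within the lines. Col7a1, which forms the fibrils that anchor the basement membrane to the tissue below, went from 2.997 to 10.9 TPM in MKOC cells and from 3.36 to 5.82 TPM in TJ cells. Its log2 change of counts was 1.16 (SE 0.14, edgeR adjusted p = 0.00022), with 1.23 and 1.08 within the lines. The TPM of Col7a1 includes a transcript of 695 bases, which was at 0.899 and 3.62 TPM in untreated and treated MKOC cells and at 1.91 and 2.55 TPM in TJ cells. Most of its counts lay on 2 transcripts of similar length, 9198 and 9250 bases. The former (ENSMUST00000026740) held 48.5%, 94.5%, 92.9% and 11.2% of the counts in untreated MKOC, treated MKOC, untreated TJ and treated TJ cells, and the latter 48.3%, 0.0352%, 0.165% and 84.3%. With the leading transcript alone, and thus without the other, the log2 change was 0.26 (edgeR adjusted p = 0.87).

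Col12a1 was at 4.71 and 7.94 TPM in untreated and treated MKOC cells and at 4.31 and 7.47 TPM in TJ cells. It rose by 0.91 on the log2 scale (SE 0.11, edgeR adjusted p = 0.00026), by 0.86 and 0.95 within the lines. Windows before the starts of Col7a1 and Col8a1, the genes with the clearest rise for which RefSeq gave a promoter, are printed with the same motifs in capitals.
Col7a1 (chr9:108953336-108953635, + strand): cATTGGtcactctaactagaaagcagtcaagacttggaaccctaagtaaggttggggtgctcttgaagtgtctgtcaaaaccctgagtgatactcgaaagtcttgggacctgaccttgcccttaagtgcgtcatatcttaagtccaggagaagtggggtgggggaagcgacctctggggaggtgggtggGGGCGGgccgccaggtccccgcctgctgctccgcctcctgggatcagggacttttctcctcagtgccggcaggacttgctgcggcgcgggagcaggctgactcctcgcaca
Col8a1 (chr16:57754688-57754987, - strand): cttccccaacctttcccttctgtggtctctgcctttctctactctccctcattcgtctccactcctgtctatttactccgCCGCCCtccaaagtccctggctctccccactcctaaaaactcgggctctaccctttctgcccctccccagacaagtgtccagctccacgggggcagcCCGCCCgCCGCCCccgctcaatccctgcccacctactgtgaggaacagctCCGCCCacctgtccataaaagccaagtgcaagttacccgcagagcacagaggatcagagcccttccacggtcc
The Col8a1 window held 4 GC boxes and the Col7a1 window 1 GC box and 1 CCAAT box.

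Col6a3 was the member that fell. It was at 12.5 and 8.88 TPM in untreated and treated MKOC cells and at 17.4 and 6.71 TPM in TJ cells, with both treated values under both untreated ones. Its log2 change of counts was -0.67 (SE 0.14, edgeR adjusted p = 0.0043), and -0.41 and -0.94 within the lines. Without the term for the line it did not pass (edgeR adjusted p = 0.060). Col6a1, its partner, had a log2 change of 0.06 (SE 0.21, edgeR adjusted p = 0.86).

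Col18a1, Col27a1 and Col3a1 passed the test less firmly. Col18a1 rose by 0.39 on the log2 scale (SE 0.13, edgeR adjusted p = 0.044), by 0.10 within MKOC and 0.67 within TJ cells, and did not pass with DESeq2 size factors (adjusted p = 0.057). Col27a1 rose by 1.33 (SE 0.41, edgeR adjusted p = 0.029) on 11 to 34 counts, and limma on log2 TPM gave an adjusted p of 0.21. Col3a1 rose by 1.53 (SE 0.52, edgeR adjusted p = 0.043), but on 5, 9, 5 and 18 counts, and without the filter on low counts its adjusted p was 0.11.

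**Figure D5:**
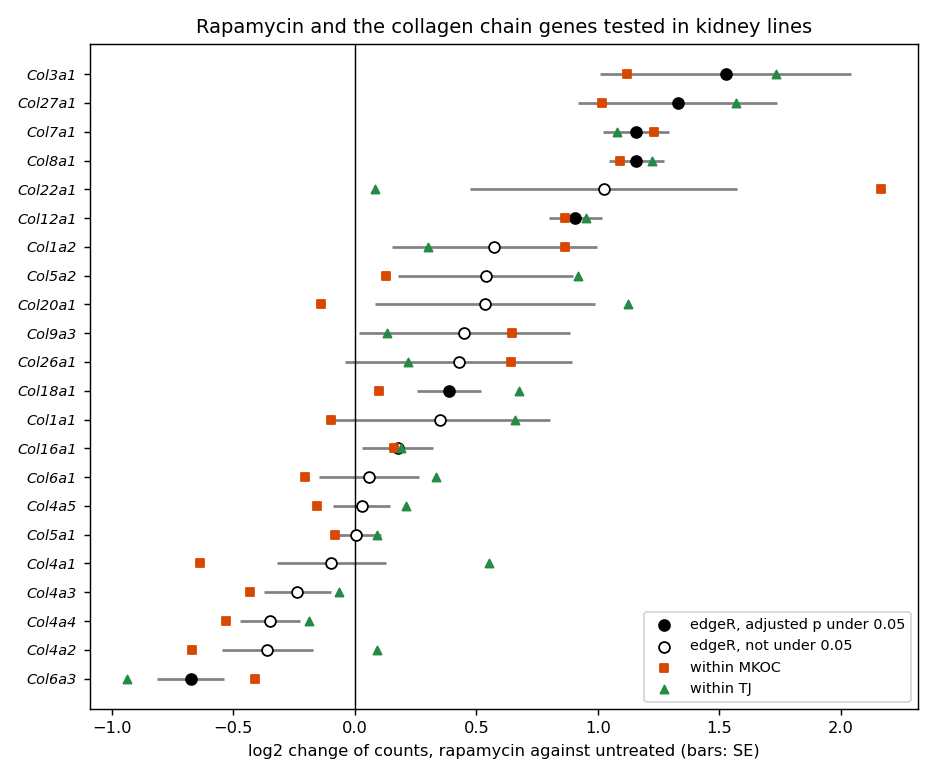
Log2 changes of counts after rapamycin are shown for the 22 collagen chain genes tested: circles with bars are the edgeR estimate and its SE over both lines (filled where the adjusted p was under 0.05), squares the change within MKOC and triangles that within TJ. Col8a1, Col7a1 and Col12a1 lie close together in both lines, and Col4a1 lies on opposite sides of 0.

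The 5 collagen IV genes tested did not pass the test (0 of 5, with 1 at an unadjusted p under 0.05 by edgeR, and 0 by DESeq2 and 0 by limma after adjustment). Over all genes, 34.9% passed by edgeR, 25.1% by DESeq2 and 28.0% by limma. Col4a4 had a log2 change of -0.35 (SE 0.12, edgeR adjusted p = 0.052), with -0.53 and -0.19 within MKOC and TJ cells. Col4a3 had -0.24 (SE 0.14, edgeR adjusted p = 0.21) and Col4a2 -0.36 (SE 0.19, edgeR adjusted p = 0.16). Col4a5 (0.03, SE 0.12) and Col5a1 (0.01, SE 0.10), the chains above 10 TPM in all 6 libraries, had estimates within 1 SE of 0.

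Genes that act on collagen were tested in the same fit. Of 21 synthesis and processing genes tested, 2 rose and 7 fell, 42.9% together, beside 34.9% of all genes. The prolyl 4-hydroxylases P4ha1 and P4ha2, which stabilize the helix, fell by 0.90 (SE 0.11, edgeR adjusted p = 0.00027) and 0.62 (SE 0.12, edgeR adjusted p = 0.0033). Serpinh1 fell by 0.67 (SE 0.15, edgeR adjusted p = 0.0067), and Bmp1, which removes the C-terminal propeptide of procollagens, rose by 0.54 (SE 0.10, edgeR adjusted p = 0.0029). Of 7 receptors tested, Ddr1, a receptor tyrosine kinase for collagen, rose by 1.27 (SE 0.11, edgeR adjusted p = 2.9e-05), and Itga1 and Ddr2 fell by 0.71 and 0.45.

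Of the 14 genes of TGF-beta signaling, the main inducer of collagen genes in fibroblasts, 9 rose and 0 fell by edgeR (DESeq2 called 8 and limma 8 in all), beside 17.5% and 17.4% of all genes, with a median log2 change of 0.60. They included Ltbp2 (1.78) and Ltbp1 (1.60), which hold latent TGF-beta in the matrix, the transducer Smad3 (1.03) and the feedback inhibitor Smad7 (1.06). Among 8 collagen-binding matrix genes tested, Thbs1 rose by 1.80 (SE 0.11, edgeR adjusted p = 7.9e-06), and Dcn and Prelp also rose. Of 5 fibroblast markers tested, Vim rose by 0.66 (SE 0.12, edgeR adjusted p = 0.0028) and Dcn by 0.82 (SE 0.13, edgeR adjusted p = 0.0014), and 0 fell, while the markers Pdgfra and Twist1 were at most 0.0955 TPM in every kidney library. The mesothelial list summed to 80.3 and 151 TPM in untreated and treated MKOC cells and to 70.3 and 98.4 TPM in TJ cells, nearly all of it Msln, while its defining markers Upk1b and Wt1 were at or near 0. Of 4 epithelial markers tested 3 rose, Krt8 by 0.79, Krt18 by 0.78 and Cldn4 by 0.31 (edgeR adjusted p = 0.00043, 0.00042 and 0.043), and the list went from 952 to 1492 TPM in MKOC and from 968 to 1636 TPM in TJ cells. Of 5 tubule markers tested Cdh16 alone passed and rose by 0.37 (edgeR adjusted p = 0.023), and Pax2, Pax8 and Emx2 had changes of -0.01 to -0.22. Of 2 macrophage markers tested Csf1r rose by 0.45 (edgeR adjusted p = 0.018), and Cd68 had a change of -0.56 (edgeR adjusted p = 0.097). The part of these lists in the changes was not tested.

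TJ and MKOC cells differed in 4 collagen IV genes and, less firmly, in Col18a1. Of the 22 members tested, 5 differed between the lines in the same fit with treatment as a covariate (22.7%, against 8.79% of all genes, with 5.47% higher and 3.32% lower in TJ). Col4a2 and Col4a1 were lower in TJ cells by 2.34 (SE 0.19, edgeR adjusted p = 9.8e-05) and 1.71 (SE 0.23, edgeR adjusted p = 0.0016) on the log2 scale. Col4a4 and Col4a3 were higher by 1.11 (SE 0.13, edgeR adjusted p = 0.00071) and 1.04 (SE 0.14, edgeR adjusted p = 0.0016). These 2 head-to-head pairs thus went in opposite directions between the lines, while Col4a5 was 0.25 higher in TJ without passing (edgeR adjusted p = 0.25) and Col4a6 had too few counts to test. Col18a1 was higher in TJ by 0.49 (SE 0.13, edgeR adjusted p = 0.047). With the leading transcript alone, Col4a1, Col4a3 and Col18a1 did not pass (edgeR adjusted p = 0.067, 0.054 and 0.21). In that fit 1.06% of all genes passed in place of 8.79%, and the transcript used for Col4a1 held 100% of its counts in every library. Col18a1 also missed with DESeq2 size factors (adjusted p = 0.065) and in limma (adjusted p = 0.069), and without the term for treatment 0 of the 22 members and 0 of all 12952 genes passed, with 4 members at an unadjusted p under 0.05 by edgeR, while DESeq2 with that term called 5 members and limma 4.

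Among the partners, Itga1, the alpha chain of an integrin that binds collagen IV, was higher in TJ cells by 1.73 (SE 0.16, edgeR adjusted p = 0.00018). Of 8 collagen-binding matrix genes tested, 1 was higher in TJ cells and 3 were lower. Tnxb was the higher one, by 2.09 (SE 0.19, edgeR adjusted p = 0.00015), and the lower ones included Dcn and Fn1 (fibronectin), by 2.12 and 1.29. Markers of other cell types differed too. Cdh5, of endothelium, was lower in TJ cells by 1.57 (SE 0.22, edgeR adjusted p = 0.0021). Pecam1, the other endothelial marker tested, had a change of 0.32 (edgeR adjusted p = 0.76). The 5 endothelial markers summed to 3.71 and 3.24 TPM in untreated and treated MKOC cells and to 1.49 and 1.28 TPM in TJ cells. Csf1r, of macrophages, was higher in TJ by 0.94 (SE 0.12, edgeR adjusted p = 0.0016), and Cd68 had a change of -0.05 (edgeR adjusted p = 0.94). Of 5 fibroblast markers tested, 1 passed higher in TJ and 1 lower, beside 5.47% and 3.32% of all genes. Pdgfrb was higher by 2.63 (SE 0.56, edgeR adjusted p = 0.018) at 0.0245 to 0.180 TPM, and Dcn was the lower one. Vim, Lum and Pdgfra had changes of -0.41, -1.15 and 1.66 and did not pass. Cdh16, alone of 5 kidney tubule markers tested, passed and was higher in TJ by 0.47 (edgeR adjusted p = 0.025). Msln, of mesothelium, was lower by 0.43 (edgeR adjusted p = 0.049). Lrrn4, the other mesothelial marker tested, was higher by 1.22 without passing (edgeR adjusted p = 0.065). The part of these lists in the collagen IV values was not tested. Each line has 1 library per treatment, and the origin of MKOC cells is not described further in the labels, so the line and its handling cannot be told apart.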

How the data were processed

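Poly(A)-selected stranded libraries were sequenced as read pairs, and the authors trimmed the reads with Trimmomatic and quantified transcripts with Kallisto (version not given in the sources used here). The study's methods name a human transcriptome, but the identifiers are those of mouse Ensembl transcripts. For each of 88198 transcripts in 6 libraries the authors deposited its length, effective length, estimated counts and TPM. The fold change ratio per transcript that the authors deposited for the MEFs was not used, except for the gene symbols beside it. Symbols were missing for 1006 transcripts (0.372% to 0.468% of counts), which were left out, and 8 with 2 symbols took the first. Positions came from GENCODE M21 (GRCm38), which held 198 of 201 member transcripts, and promoters from RefSeq.

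TPM and estimated counts were summed per symbol. MEF fold changes had 1 TPM added, following the study, and were called at 8-fold. Counts of the 4 kidney libraries were rounded, filtered with filterByExpr, TMM-normalized and fitted by the quasi-likelihood method of edgeR (line and treatment in the model, Benjamini-Hochberg at 0.05). The labels name the line of each library, and libraries of a line deviated together (correlation 0.52 over genes). Members of at least 10 TPM, or past a call, were named. The members, classes and lists were chosen with earlier results of these data known. The model was tested on simulated data. DESeq2 1.42.0, edgeR 4.0.16 and limma 3.58.1 ran in R 4.3.3, and pandas 2.3.3, scipy 1.17.1 and matplotlib 3.10.9 in Python 3.11.15.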

Additional observations from a re-analysis of the deposited data

Results flagged for a closer look

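The labels gave no group of 4 or more replicates, so no search for outlying libraries was made. Col4a1, Col4a5 and Col5a1 had rapamycin changes of opposite sign in the 2 kidney lines, each beyond counting error in its line (95% interval of the ratio of counts). That interval covers counting error only and leaves out the spread between libraries. The share of all genes that met the same rule was not computed, so it cannot be said whether these members are unusual. The log2 change of Col4a1 was -0.64 in MKOC cells and 0.55 in TJ cells. That of Col4a5 was -0.16 in MKOC and 0.21 in TJ cells, and that of Col5a1 was -0.081 in MKOC and 0.091 in TJ cells. The differences between the lines were not tested, since each line has 1 library per treatment.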

How the results depend on the processing

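No called result changed sign under any alternative run, but 14 uncalled gene values did under at least 1. Among them, the MEF log2 fold of Col4a5 (0.11) was -0.27 scaled to the median ratio, -0.12 without short transcripts and -0.20 in CPM, and the rapamycin change of Col16a1 (0.18) was -0.34 with the leading transcript and -0.17 by limma. With 1 library per condition, low counts limited Col3a1, Col27a1 and Col1a1 in kidney cells, and the MEF folds have no replicate check. For rapamycin (7 called, 6 higher, 1 lower), leaving out the cell line (no replicate block, although the labels pair the libraries by line) gave 3 called, 3 higher and 0 lower (6 at an unadjusted p under 0.05 by edgeR), where 9.84% of all genes passed in place of 34.9%. DESeq2 called 4, 3 of them higher (25.1% of all genes), and the leading transcript of each gene 3, 2 of them higher (21.4% of all). Without the filter on low counts 7 of 41 members were called, 2 of them lower (25.4% of all genes). For TJ against MKOC (5 called), the leading transcript gave 2 called, 1 higher and 1 lower (1.06% of all genes in place of 8.79%), and the model without treatment 0 called, 0 higher and 0 lower (4 at an unadjusted p under 0.05 by edgeR, and 0 of all 12952 genes after adjustment). For the MEFs (2 past 8-fold, 1 each way), 0.1 TPM added gave 5, 4 of them higher (4.82% of all genes in place of 1.59%), 5 TPM added gave 1 and 0 higher (0.409%), CPM gave 4 with 3 higher (2.01%), transcripts in place of genes gave 4 with 3 lower (0.830% of all transcripts), and a threshold of 2-fold gave 9, 7 higher and 2 lower, and 2-fold relative to the median ratio, chosen after seeing the data, gave 12, 6 higher and 6 lower. Of 16 members at 10 TPM, 12 did not overlap between MEF and kidney libraries, 11 higher in the MEFs and 1 in the kidney, against 48.5% of all 10115 such genes (20.9% and 27.5%). The pseudocount, the threshold and the level set these counts by construction; for the others the cause was not tested.

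Among single genes, 22 calls were lost, 1 was gained (Col7a1 between the lines without the filter, adjusted p = 0.039) and 14 values moved. The Col6a3 fall had an adjusted p of 0.060 without the cell line, and the Col18a1 rise was lost with DESeq2 size factors, DESeq2, the leading transcript and no cell line (adjusted p 0.057 to 0.32). Col8a1 and Col12a1 passed in every fit run with a test. With 1 line left out, the log2 change was 1.09 to 1.22 for Col8a1 and -0.94 to -0.41 for Col6a3.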
